A study of Bos taurus with 16 samples.

Results

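Imprinted genes were examined in bovine blastocysts by reading 10 symbols from the count tables, namely IGF2, IGF2R, H19, MEST, PEG3, PEG10, SNRPN, NNAT, PLAGL1 and PHLDA2. Rows whose gene name equalled one of these symbols were taken, and each locus was entered once, which gave a locus for 9 of the 10 genes among 22358 loci. SNRPN, which codes for a protein of the splicing machinery, was not analysed here. The locus of PEG3 also carried the name LOC100849714, so its reads could belong to either name.

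The embryos came from 8 Holstein cows, 4 per diet, and each cow gave 2 pools of expanded blastocysts. Control cows received a basal diet and methionine-rich cows the same diet with rumen-protected methionine added, from calving until the embryos were collected. All cows were superovulated. The tissue label of the samples reads IVF embryos, whereas the methods of the study describe embryos flushed from inseminated cows, and the cows' ages were not given in the sources used here. A pool held a single embryo or a few, of unstated sex, and both pools of control cow 4 and pool M8.2 were single embryos. Methionine-rich pools mostly held more embryos than control pools, so pool size and diet are partly confounded, and pools of 1 cow are not separate animals. In such bulk RNA, fewer expressing cells and less RNA per cell cannot be told apart. The RNA was amplified linearly in several rounds before sequencing, and p-values among pools treat them as separate samples.

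An imprinted gene is read mainly from the copy inherited from 1 parent, because methylation laid down in the egg or the sperm marks the parental copies differently. These marks have to survive the wave of demethylation that passes over the rest of the embryonic genome before the blastocyst forms, and methionine is the precursor of S-adenosylmethionine, the donor of the methyl groups. Many imprinted genes act on growth and on the placenta, and several acquire their parental bias only after implantation or only in some tissues. Counts summed over both alleles do not show which parental copy was read, so the values below are total transcript levels.

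Total counts ran from 5624126 to 7826542 in 15 pools, with a median of 7257007, and reached 1745048 in control pool C3.2, which the study did not analyse and which is left out of the comparisons. Pools are named by treatment (C or M), cow and pool. In the 15 pools a count of 3 equalled 0.383 to 0.533 CPM (counts scaled to an equal total in every pool). Trophectoderm markers summed to between 2603.9 and 8125.7 CPM, and 7 or 8 of their 8 loci had at least 3 counts in every pool. Inner cell mass markers summed to between 99.0 and 401.3 CPM, with 5 or 6 of 6 loci at 3 counts. Cumulus or granulosa cell markers summed to 3.17 to 74.2 CPM in control pools and 2.37 to 55.9 CPM in methionine-rich pools, highest in C4.2 and M6.1. Markers of oviduct or uterine epithelium summed to 0 to 15.4 CPM and 0 to 26.0 CPM, highest in C1.2 and M6.1. Control pool C2.1 stood apart, as 8 of 9 leukocyte markers had at least 3 counts there and summed to 2364.3 CPM, against 1.16 to 29.7 CPM in the other 6 control pools compared and 0 to 7.1 CPM in the methionine-rich pools.

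The imprinted genes differed in the number of pools in which their reads were found. IGF2R alone had at least 3 counts in all 15 pools, while MEST and PHLDA2 reached 3 counts in 13 pools each. PLAGL1 reached 3 counts in 4 pools, and IGF2 and NNAT in 2 pools each. H19, PEG3 and PEG10 had a count of 0 in every one of the 15 pools, which allows a level of up to 0.0286 CPM over the pooled total (an upper limit of 3 counts that covers counting error only). Of all 22358 loci, 26.9% had at least 3 counts in every pool and 29.4% had them in none, against 1 of 9 and 3 of 9 imprinted loci. A low count does not show that a gene is silent, since the loci named GAPDH, a glycolytic enzyme that all cells use, had medians of only 1.0 and 5.0 counts. Transcript length and amplification enter these counts, so genes are not ranked by level here.

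**Figure D1:**
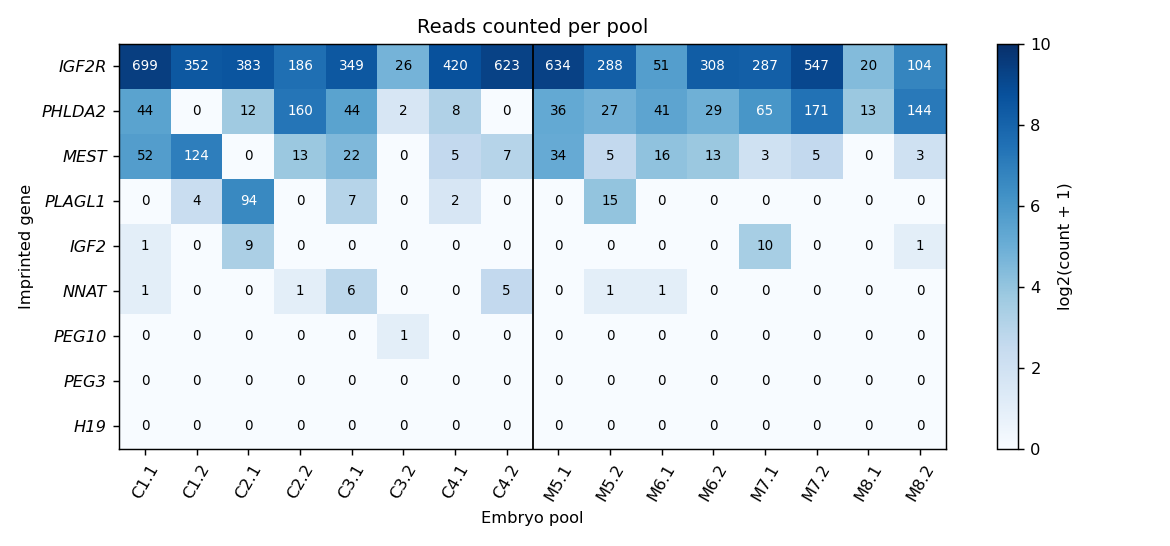
Reads counted for 9 imprinted genes (rows) in each of 16 embryo pools (columns, control left of the line), with the count printed in each cell and the colour on a log2(count + 1) scale. IGF2R is filled throughout, from 20 to 699 counts in the 15 pools compared, whereas the rows of PEG3 and H19 hold only 0 and PEG10 has 1 count, in C3.2.

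The study asked whether methionine in the mother's diet changes embryonic transcript levels, and 4 imprinted genes, IGF2R, PHLDA2, MEST and PLAGL1, had the summed CPM of 15 that a locus needed to be tested. None of these 4 differed between diets by the exact test of edgeR at a Benjamini-Hochberg adjusted p (FDR) under 0.1 with at least a 2-fold difference, and neither did any by edgeR's quasi-likelihood test. Among all 10519 loci tested, the exact test called 110, or 1.05%, and the quasi-likelihood test called 0, or 0.0%. At an unadjusted p under 0.05 the imprinted genes numbered 0 of 4, against 898 loci or 8.54% of all those tested, and by the quasi-likelihood test 0 of 4, against 909 loci. Other fits passed that unadjusted threshold without a call. IGF2R did so with limma and the cow as a random effect (log2 -1.22, unadjusted p = 0.046, limma adjusted p = 0.993). MEST and PLAGL1 did so in edgeR's quasi-likelihood test with the number of blastocysts as a covariate (unadjusted p = 0.0209 and 0.0188, adjusted p = 0.353 and 0.339). MEST also passed it in the exact test without pool C2.1 (p = 0.0354), without cow 2 (0.0287), without cow 4 (0.04) or with at least 1 CPM in 7 pools (0.0464), and PLAGL1 without cow 5 (0.00555). The means of the 4 control cows and the 4 methionine-rich cows overlapped for each of the 4 genes, whereas they did not overlap at 232 loci, 2.21% of those tested.

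IGF2R is the receptor that takes up the growth factor IGF2 for breakdown and carries tagged enzymes to lysosomes, and in many mammals it is read from the maternal copy. In control pools it had 28.8 CPM at the lowest, 68.1 at the median and 92.2 at the highest, with a mean of 62.6 ± 21.4 CPM (SD, n = 7). In methionine-rich pools it had 2.78 CPM at the lowest, 37.3 at the median and 87.4 at the highest, with a mean of 40.1 ± 32.5 CPM (SD, n = 8). The upper ends of both groups met, and only pools M6.1, M8.1 and M8.2, with 51, 20 and 104 counts, lay below every control pool. For these pools the study lists a lower concentration of amplified RNA than for any control pool compared. It does so also for M6.2 and M7.1, whose IGF2R lay within the control range. The part of RNA yield in these values was not tested. The log2 fold change, methionine-rich over control, was -0.75 with an FDR of 0.841 (exact test) or 0.819 (quasi-likelihood). DESeq2 gave -0.76 ± 0.53 (SE), and its 95% interval, -1.80 to 0.28, holds no change as well as a fall of more than 2-fold.

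By cow, IGF2R averaged 72.5, 48.4, 47.0 and 74.7 CPM in control cows 1 to 4 and 62.7, 29.4, 59.9 and 8.41 CPM in methionine-rich cows 5 to 8. Cows 5 and 7 thus lay within the control range, and cows 6 and 8 below it. The difference of cow means on the log2(CPM + 1) scale was -1.13, with p = 0.2 in an exact two-sided permutation test over the 70 ways to assign 4 of 8 cows. The smallest p this test allows is 0.0286, and after adjustment over the 17409 loci with a count, every locus had a p of 1.0. Without cow 8 the log2 fold change of the exact test was -0.42, and with the number of blastocysts per pool as a covariate the quasi-likelihood test gave -1.30 with an FDR of 0.614.

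PHLDA2 codes for a small protein that restrains growth of the placenta and is read from the maternal copy. Its control pools ran from 0 to 24.8 CPM with a median of 2.13, and its methionine-rich pools from 1.81 to 26.0 CPM with a median of 5.27. At least 3 counts were present in 8 of 8 methionine-rich pools and in 5 of 7 control pools, C1.2 and C4.2 having 0. The highest values of the groups were alike, at 160 counts in C2.2 and at 171 and 144 counts in M7.2 and M8.2. Means were 5.71 ± 8.76 CPM (SD, n = 7) and 9.32 ± 8.65 CPM (SD, n = 8), and the log2 fold change was 0.86 with an FDR of 0.991 by the exact test. The interval from DESeq2 reached from -1.0 to 2.77.

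Among cows, PHLDA2 averaged 2.9, 13.4, 5.93 and 0.659 CPM in cows 1 to 4 and 4.26, 5.23, 17.1 and 10.6 CPM in cows 5 to 8. Control cow 2 exceeded 3 of the 4 methionine-rich cows. The cow-level difference was 0.99 on the log2(CPM + 1) scale, with p = 0.257 in the exact permutation test. The fold change depended on single cows, with a log2 value of 1.81 without cow 2, 0.43 without cow 4 and 0.41 without cow 7.

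MEST, a protein of the hydrolase family that is read from the paternal copy, had its highest counts in control cow 1, with 52 in C1.1 and 124 in C1.2. Its control pools ran from 0 to 18.6 CPM with a median of 2.01, and its methionine-rich pools from 0 to 4.69 CPM with a median of 0.71. A pool with a count of 0 occurred in each group, C2.1 and M8.1, so that the ranges overlapped from the bottom. Means were 4.59 ± 6.58 CPM (SD, n = 7) and 1.41 ± 1.56 CPM (SD, n = 8). The log2 fold change was -1.90 with an FDR of 0.701 (exact test) or 0.706 (quasi-likelihood), and DESeq2 gave an interval of -3.96 to 0.09.

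The difference in MEST rested on cow 1, whose pool C1.2 held 41.1% of its counts and whose mean was 12.7 CPM against 0.862 to 2.96 CPM in the other control cows. Without cow 1 the log2 fold change was -0.02. Methionine-rich cows averaged 2.67, 2.18, 0.571 and 0.203 CPM, and the cow-level difference of -0.78 had p = 0.371 in the exact permutation test. With the number of blastocysts as a covariate the log2 value was -3.17 and the FDR 0.353 by the quasi-likelihood test.

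PLAGL1 is a zinc finger transcription factor that slows cell division and is read from the paternal copy. It was read 94 times in control pool C2.1 and 15 times in M5.2, with 7 counts in C3.1, 4 in C1.2, 2 in C4.1 and 0 in the other 10 pools. Pool C2.1, the one with the leukocyte markers at 2364.3 CPM, thus held 77.0% of its reads, and the part of those cells in the PLAGL1 value was not tested. Means were 2.66 ± 6.21 CPM (SD, n = 7) and 0.247 ± 0.70 CPM (SD, n = 8). The log2 fold change was -3.46 with an FDR of 0.781 by the exact test, against -0.38 without pool C2.1, -0.64 without cow 2 and -7.30 without cow 5. Leaving out cow 5 removes every methionine-rich read of the gene, and that last value depends on the prior count that edgeR adds. The standard error from DESeq2, 3.01 on the log2 scale, was close in size to the change, and the cow-level difference of -0.70 had p = 0.171 in the exact permutation test. The blastocyst covariate gave a log2 value of -6.28 and an FDR of 0.339 by the quasi-likelihood test.

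**Figure D2:**
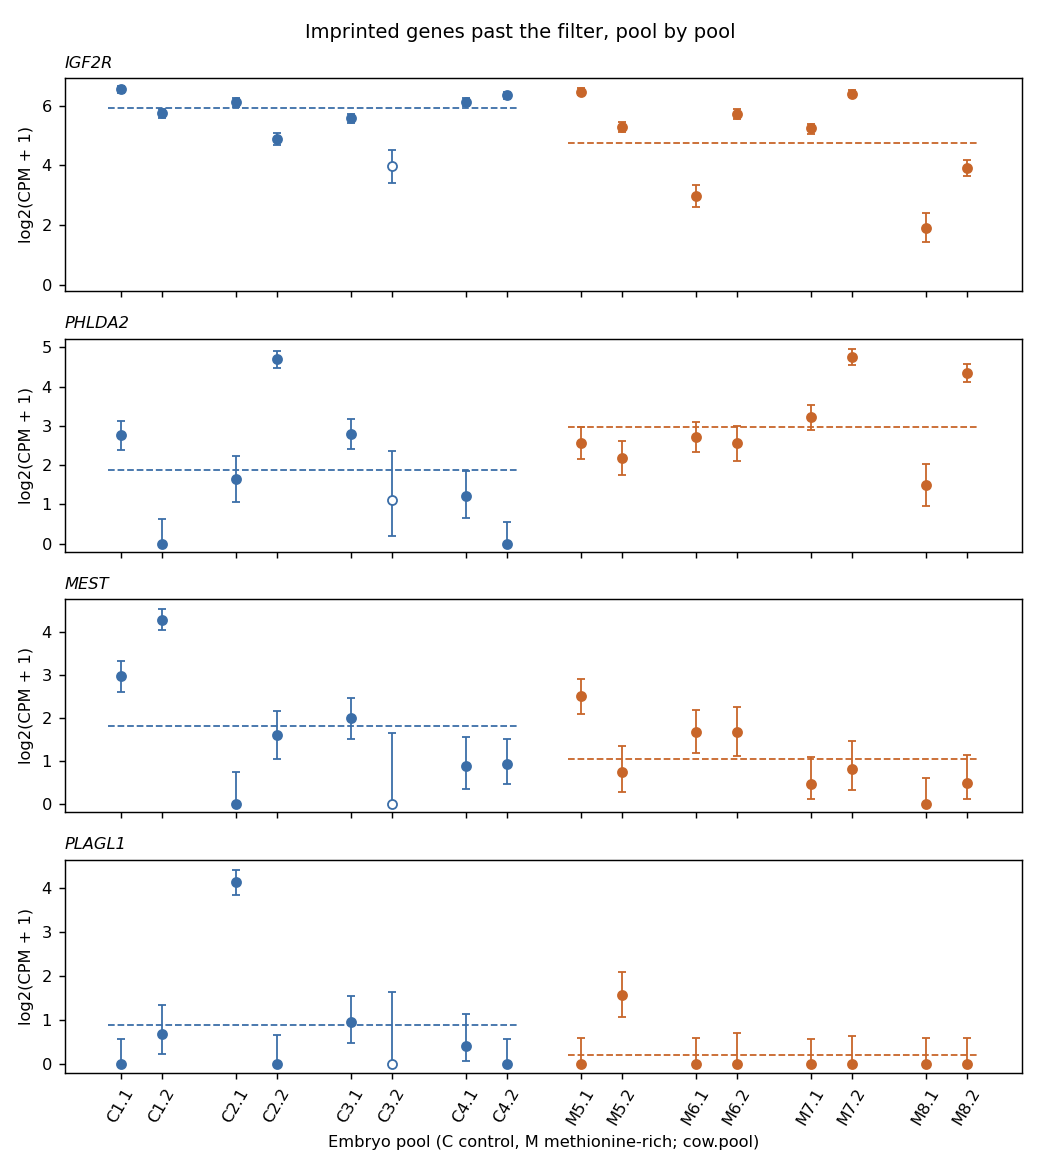
Level of the 4 tested imprinted genes, as log2(CPM + 1), in each embryo pool, grouped by cow. Bars are exact 95% binomial intervals that cover counting error only. Blue stands for control and orange for methionine-rich, dashed lines are the means over 7 and 8 pools, and the open circle is C3.2, which enters no mean. IGF2R falls to 20 counts in M8.1, MEST is highest in the pools of cow 1, and PLAGL1 stands out in C2.1 with 94 counts.

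**Figure D3:**
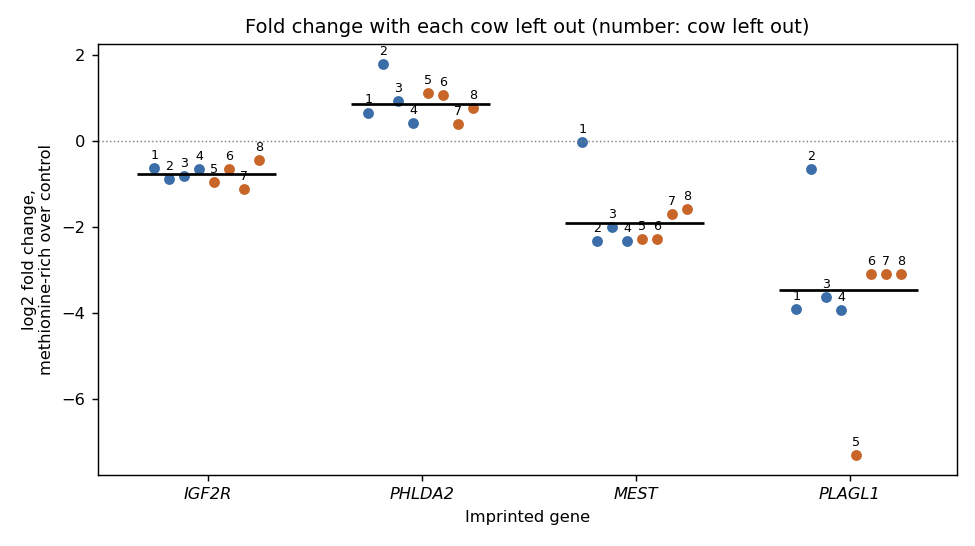
Log2 fold change, methionine-rich over control, of each tested imprinted gene from the exact test with 1 cow left out at a time (points, labelled by the cow left out, blue for control cows and orange for methionine-rich cows), beside the value with all 8 cows (black line). MEST moves from -1.90 to -0.02 without cow 1, and PLAGL1 from -3.46 to -0.64 without cow 2.

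The ligand IGF2, a growth factor read from the paternal copy in most tissues of the fetus, did not reach the filter. It had 9 counts in C2.1, 10 in M7.1, 1 each in C1.1 and M8.2, and 0 in the other 11 pools. The pair of pools with more than 1 read belonged to different diets, and total reads were 10 in control and 11 in methionine-rich pools. The cow-level difference of -0.02 on the log2(CPM + 1) scale had p = 0.886 in the exact permutation test. C2.1 is again the pool with the leukocyte markers, and their part in the 9 counts was not tested. NNAT, a membrane protein of the endoplasmic reticulum read from the paternal copy, had 6 counts in C3.1, 5 in C4.2 and 1 or 0 elsewhere. Its total was 13 counts in control and 2 in methionine-rich pools, and the cow-level difference of -0.31 had p = 0.0857 in the exact permutation test, and p = 0.0286 without cow 1, the smallest p then possible. As only C3.1 and C4.2 exceeded the floor of 3 counts, no fold change is given.

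H19, a noncoding RNA read from the maternal copy of the chromosome region that it shares with IGF2, had no read in any of the 16 pools. The same held for PEG3, a zinc finger protein read from the paternal copy. PEG10, a protein derived from a retrotransposon and needed for the placenta in mice, had a single read, in the C3.2 pool that was set aside. A count of 0 in a single pool allows up to 0.471 to 0.656 CPM in the 15 pools (exact 95% binomial limit).

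IGF2R varied 3.2-fold from lowest to highest pool under the control diet and 31.4-fold under the methionine-rich diet. Its SD on the log2(CPM + 1) scale was 0.55 and 1.64, against medians of 0.96 and 0.90 over all loci tested, and this difference in spread was not tested. The SD of the other genes was higher in control pools, at 1.69 against 1.09 for PHLDA2, 1.45 against 0.83 for MEST and 1.49 against 0.56 for PLAGL1.

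Sister pools of a cow differed on average by about as much as pools of other cows for 3 of the 4 genes. Over the 7 pairs of pools from 1 cow, IGF2R differed on average by 1.33 on the log2(CPM + 1) scale, and over the 42 pairs from other cows on the same diet by 1.40. For PHLDA2 the averages were 1.71 and 1.58, and for PLAGL1 they were 0.97 and 0.82. MEST was the gene with closer sister pools, at 0.80 against 1.38, whereas the median locus had 1.03 and 1.06. Pairs share pools, and these averages are given without a test.

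Dispersion was above the median of loci with similar abundance for 3 of the 4 genes. The tagwise dispersion, the squared coefficient of variation between pools that edgeR estimates beyond counting error, was 0.493 for IGF2R against a median of 0.346 over the 1104 loci within 0.5 log2 CPM of it. PHLDA2 had 1.5 against 1.09, and MEST had 1.92 against 2.21. PLAGL1 had 6.13 against 3.41, the reads of C2.1 included. The common dispersion over all loci was 1.142, a coefficient of variation of 1.07 between pools.

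**Figure D4:**
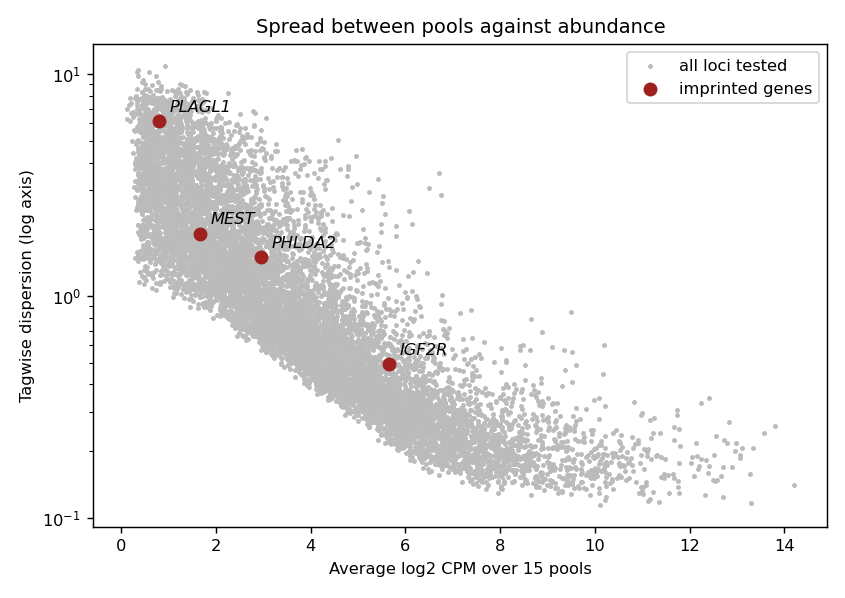
Tagwise dispersion between the 15 pools (log axis) against average log2 CPM for the 10519 loci tested (grey) and 4 imprinted genes (red). MEST, at 1.92, lies below the middle of the loci at its abundance, and PLAGL1, at 6.13, lies in the upper part.

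The tested imprinted genes did not follow 1 common pattern across pools. Over the 15 pools Spearman's rho was 0.427 between IGF2R and MEST, -0.152 between IGF2R and PHLDA2 and -0.050 between MEST and PHLDA2. PLAGL1, at 0 counts in most pools, had 0.074 with IGF2R, -0.073 with MEST and -0.395 with PHLDA2. Among tested loci with a gene name, IGF2R ran closest to THAP3 (rho 0.868), PAFAH1B3 (0.857) and TC2N (0.854). MEST ran closest to ANAPC10 (0.892), KIF22 (0.888) and DNAL4 (0.856), and PHLDA2 to AATF (0.828), VPS4A (0.794) and ZNF438 (0.785). These are the highest values for each gene among the tested loci with a gene name, at most 10519. The points share libraries and depth, and the values are given as a description.

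Genes next to the imprinted loci were read from the gene order of RefSeq on assembly ARS-UCD2.0, 5 on each side, a choice made after their values were seen. H19 and IGF2 are neighbours there, and of 8 genes around IGF2 with a locus 5 did not reach 3 counts in any pool, among them TH, INS and TNNT3. MRPL23, a mitochondrial ribosomal protein gene next to H19, reached 3 counts in all 15 pools. Near IGF2R, MRPL18 and TCP1 reached 3 counts in all 15 pools. NNAT lies beside BLCAP, itself imprinted in some tissues, which averaged 53.8 ± 32.9 CPM (SD, n = 7) in control and 54.8 ± 29.7 CPM (SD, n = 8) in methionine-rich pools. PEG10 lies between SGCE, which reached 3 counts in 1 pool, and PPP1R9A, which did so in 2 pools.

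A wider list of 54 genes imprinted in at least 1 mammal, tissue or transcript gave 42 loci, of which 23 were tested. Neither test called any of them. An unadjusted p under 0.05 in the exact test was reached by 2 of the 23, close to the 8.54% of all loci tested. Their log2 fold changes lay below 0 at 12 and above 0 at 11, against 5631 and 4888 of all 10519 loci tested. Their median log2 fold change was -0.09, against -0.05 over all loci tested. At least 3 counts in every pool were present at 9 of the 42 loci, and at 7 in none, among them DLK1, KCNQ1, SLC22A18 and INS. Of all 22358 loci, 6012 had them in every pool and 6564 in none.

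Of the 10 loci of this list with the highest mean CPM, GRB10, an adaptor that dampens insulin and growth factor signalling, had 61.3 ± 44.9 CPM (SD, n = 7) in control and 86.3 ± 34.0 CPM (SD, n = 8) in methionine-rich pools. Counts of the noncoding RNA MEG3 spanned 12 to 68 under the control diet and 0 to 117 under the methionine-rich diet, with medians of 43.0 and 3.5. Its log2 fold change was -0.56 with an FDR of 1.0 by the exact test, against -2.98 (adjusted p = 0.993) with limma and the cow as a random effect, -3.00 (FDR 0.553) with the blastocyst covariate in the quasi-likelihood test, and -0.14 without cow 8. XIST, the RNA that coats an inactive X chromosome, ran from 5.01 to 1151.8 CPM in control and from 52.0 to 812.6 CPM in methionine-rich pools. GNAS, COMMD1, IMPACT and OSBPL5 had log2 fold changes between -0.50 and 0.42, while those of UBE3A and INPP5F, whose loci also carry other names, were -1.24 and -1.15 with FDR values of 0.745 and 0.781 by the exact test. Of the loci with an unadjusted p under 0.05, SLC22A2 had 98.6% of its reads in C4.2 and none in methionine-rich pools, with an FDR of 0.234 by the exact test. ZDBF2 had 62.1% of its reads in M8.1 and reached 3 counts in 4 pools. Its log2 value was 3.98 with an FDR of 0.573 by the exact test, and 2.74 without cow 8.

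**Figure D5:**
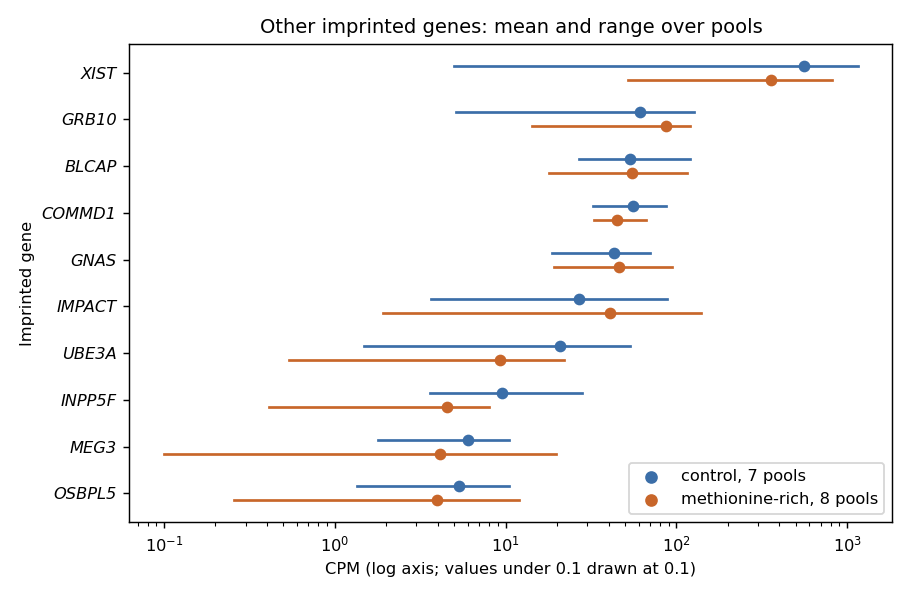
Mean (point) and range (line) of CPM, on a log axis, over 7 control pools (blue) and 8 methionine-rich pools (orange) for the 10 loci with the highest mean CPM among 54 other imprinted genes. The ranges overlap for each gene, and XIST spans 5.01 to 1151.8 CPM in control pools.

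Genes that keep or bind imprint marks gave 7 tested loci, none of them called by either test. CTCF, which binds the control region between IGF2 and H19, had 250.5 ± 68.3 CPM (SD, n = 7) in control and 264.0 ± 120.9 CPM (SD, n = 8) in methionine-rich pools. DPPA3, which shields maternal marks, had 100.7 ± 40.0 and 85.1 ± 25.6 CPM, and the maintenance methyltransferase DNMT1 had 12.5 ± 9.41 and 18.5 ± 9.75 CPM, with n = 7 and n = 8. An unadjusted p under 0.05 in the exact test was reached by 2 of the 7, against 8.54% of all loci tested. TRIM28, a corepressor at imprint control regions, had a log2 value of 2.61 and an FDR of 0.265 by the exact test, 52.9% of its reads lying in M8.2. ARID4A, a chromatin protein that acts at some imprints, had 28.4 ± 14.6 and 65.4 ± 26.0 CPM, a log2 value of 1.17 and an FDR of 0.316 by the exact test. Its cow means did not overlap, which held for 1 of the 7 loci and for 2.21% of all loci tested. Without cow 8, 0 of the 7 loci had an unadjusted p under 0.05 in the exact test. With any other single cow left out, 2 had one.

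Of 4 tested genes linked to IGF2 or IGF2R, 1 was called by the exact test, which called 1.05% of all loci tested. The quasi-likelihood test called 0 of the 4 and 0 of all loci tested. The mRNA-binding proteins IGF2BP1 and IGF2BP3 had log2 fold changes of 0.39 and 0.10, and M6PR, the other receptor for tagged lysosomal enzymes, had -0.39, with FDR values of 0.934 to 1.0 by the exact test. IGF1R, the receptor through which IGF2 acts on growth, reached 3 counts in 6 pools and was not tested. INSR, the insulin receptor, was the one called, with between 1 and 358 counts per control pool and no more than 23 per methionine-rich pool. Its log2 fold change was -5.37 with an FDR of 0.00958 in the exact test, against 0.302 in the quasi-likelihood test.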

How the data were processed

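The authors aligned reads to bosTau7 with TopHat2 2.0.4, assembled transcripts with Cufflinks 2.0.2 and counted reads per gene with HTSeq, and the deposited values are whole-number counts without normalization, 22552 rows per pool. Groups, cows and pools came from the sample titles. Members and lists were chosen with earlier results of these data known. Lists of other imprinted, imprint maintenance and marker genes, and of genes linked to IGF2 or IGF2R, were written from general knowledge. All 10 members were named, with the 10 other imprinted loci of highest mean CPM. The 3 loci most like each member found in at least 12 pools were named as well. Outside the marker lists, so was any listed gene under an FDR of 0.1. Markers were given as sums, and the 5 leukocyte markers tested were all under that FDR by the exact test. Imprint maintenance genes and genes linked to IGF2 or IGF2R were given by value if past the filter. Genes named for a low p, for a share held by 1 pool or as neighbours were chosen after their values were seen.

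Loci with a summed CPM of at least 15 over 15 pools were kept. TMM normalization, common and tagwise dispersions and the exact test followed the study's methods, in edgeR 4.0.16 (R 4.3.3). The study, with an earlier edgeR version, reported more differentially expressed genes than the 110 loci called here, and the cause was not tested. The quasi-likelihood test of edgeR was run beside it, and standard errors came from DESeq2 1.42.0. Cow means of log2(CPM + 1) were compared by exact two-sided permutation, with adjustment over all loci with a count in place of the members alone as first planned. Alternatives included limma 3.58.1 (voom), other filters and scalings, all 16 pools, each cow left out, and counts under 1% of a locus' highest set to 0. Scripts were tested on simulated data. For the fits the simulated dispersion was 0.1, lower than that of each tested imprinted gene. That check does not show what the fits would find at the spread of these data. Same-numbered pools did not deviate together (mean correlation -0.0076, against 0.0076 for other numbers), and no pair of pools held the same library (smallest chi-square per degree of freedom 51.0). Without strand information stated in the sources used here, antisense reads cannot be told apart, and no lane or sire was known per pool.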

Additional observations from a re-analysis of the deposited data

Results flagged for a closer look

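In 4 of the 12 groups of pools examined, 1 pool stood far from the rest of its diet in an imprinted gene, where chance flags about 1 in 20 groups and groups made mostly of 0 are flagged readily. PLAGL1 had 16.7 CPM (94 counts) in control pool C2.1 and 1.98 CPM (15 counts) in methionine-rich pool M5.2. IGF2 had 1.60 CPM (9 counts) in C2.1 and 1.28 CPM (10 counts) in M7.1. Leukocyte markers summed to 2364.3 CPM in C2.1, and their part in its values was not tested.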

How the results depend on the processing

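No imprinted gene that was tested was called under any of the 21 alternatives, which tested 3 or 4 of the 10 genes (6 without a filter) and 13 to 35 of the 42 loci of the wider list. H19, PEG3, PEG10 and SNRPN were in no test, and IGF2 and NNAT were in a fit across loci only without the filter. The 110 loci called over the whole table depended on the choices far more: 0 by the quasi-likelihood test alone, with a replicate block for pool number, with blastocyst number as a covariate or by limma (421 at an unadjusted p under 0.05), 67 by DESeq2, 55 without a filter, 6 with at least 1 CPM in 7 pools, 356 with all 16 pools, 66 without C2.1, 42 with low counts set to 0, and 50 to 149 with a cow left out (50 without cow 8 and 64 without cow 7). RLE scaling gave 117 loci, and library totals without TMM gave 99. When counts of sister pools were merged into a single sample per cow, 78 loci were called. The cause of these differences was not tested. The pool number paired no pools, and the block left the counts of called imprinted genes at 0. Fold changes kept their sign throughout, from -1.30 to -0.42 for IGF2R, -3.17 to -0.02 for MEST, -7.30 to -0.38 for PLAGL1 and 0.41 to 2.16 for PHLDA2 on the log2 scale, the last being by limma. PLAGL1 was not tested with at least 1 CPM in 7 pools and had no adjusted p in DESeq2. The cow-level difference of IGF2 changed sign, from -0.02 to 0.15 without C2.1 and to 0.14, 0.03, 0.03 and 0.003 without cows 2, 5, 6 and 8, over a range of -0.16 to 0.14 with a cow left out. IGF2R was the 1 gene with at least 3 counts in every pool under each of 5 other rules, the one without C2.1 being added after seeing the data. At these depths a count of 0 in a pool still allows up to 0.471 to 0.656 CPM.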
